A study of Drosophila melanogaster with 35 samples.

Results

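Heads of flies carrying the Y874C change in KDM5 were compared with heads of flies carrying the R873W change, at the residue next to it. The comparison took its members by their columns in the deposited table of gene counts, 3 Y874C libraries and 3 R873W libraries, which are 6 of the 35 samples of the series and 6 of its 23 head RNA-seq libraries. The series modelled in Drosophila melanogaster variants of human KDM5C found in Claes-Jensen syndrome, an intellectual disability, and set each against flies with wild-type KDM5; the other strains with head libraries are A224T, D234G, L854F, a synthetic demethylase-dead strain labelled JmjC, and WT. No wild-type library enters the contrast between Y874C and R873W, so a difference says which of the strains is higher and not which of them departs from WT. Levels in WT heads (5 libraries) and in the other strains are given beside the genes with the largest differences for that reason. The WT libraries differ among themselves, and each WT range pools all 5. Over a list of antennal genes, the median relative to the mean of the 23 head libraries (log2) split them. It was -0.89 and -1.15 in WT 1 and 2, against 1.25, 1.04 and 1.00 in WT 3 to 5. The Y874C and R873W libraries lay between -1.36 and -0.69. A WT range thus includes libraries unlike these 6 in such genes.

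Both groups were raised alike, at 25 °C in a 12-hour light and dark cycle, and were harvested in the morning 1 to 5 days after eclosion. The labels give the KDM5 variant and the tissue, but not the sex of the flies, how each allele was made, the number of heads in a library or whether replicates came from separate cultures. The p-values therefore set a difference against the scatter of these libraries, and that scatter may be technical only.

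KDM5 belongs to a family of histone demethylases that remove methyl groups from a lysine of histone H3 through a JmjC domain, and it also affects transcription through its other domains. In neurons its human relatives are known from inherited intellectual disability. Ribosomal proteins, made in large amounts and assembled with ribosomal RNA in the nucleolus, are the genes that the design text of the series singles out as lower across the variants.

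The 6 libraries held between 23871244 and 32730301 counts on genes. Y874C libraries had counts on 13536 ± 161 genes and R873W libraries on 14264 ± 226 (SD, n = 3 each), and insertions of transposable elements took 0.863 ± 0.128% of the counts in Y874C libraries and 1.399 ± 0.111% in R873W libraries. Both differences had an exact two-sided permutation p of 0.1, the smallest that 3 against 3 allows. Y874C 1 stood apart from Y874C 2 and Y874C 3: the chi-square of their gene counts over its degrees of freedom was 83.5 for Y874C 1 and 2, 62.5 for Y874C 1 and 3 and 11.2 for Y874C 2 and 3, while the R873W pairs lay between 24.6 and 29.2. No pair of libraries was a duplicate.

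The R873W libraries also differed among themselves in transcripts of the male reproductive tract, which heads should lack. Summed over all 34 members of a list of such transcripts other than EbpIII, which was abundant everywhere, the Y874C libraries held 1.14, 1.45 and 1.64 CPM (counts scaled to a common library size and adjusted for composition) and the R873W libraries held 17.6, 181 and 2414 CPM. Acp36DE, a seminal fluid protein of the accessory gland, had 0.0358, 0 and 0.0728 CPM in Y874C heads, against 2.51, 35.1 and 174 CPM in R873W heads. S-Lap4, a sperm leucyl aminopeptidase, had 0.0358, 0.0569 and 0.0728 CPM in Y874C heads, against 2.46, 29.2 and 9.27 CPM in R873W heads. Thus accessory gland transcripts were highest in R873W 3 and sperm transcripts in R873W 2, and R873W 1 was the lowest of the R873W libraries in both. Cyp4g1, an oenocyte P450 that makes cuticular hydrocarbons, had 4.90, 2.504 and 4.59 CPM in Y874C heads, against 108, 95.9 and 740 CPM in R873W heads.

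**Figure D1:**
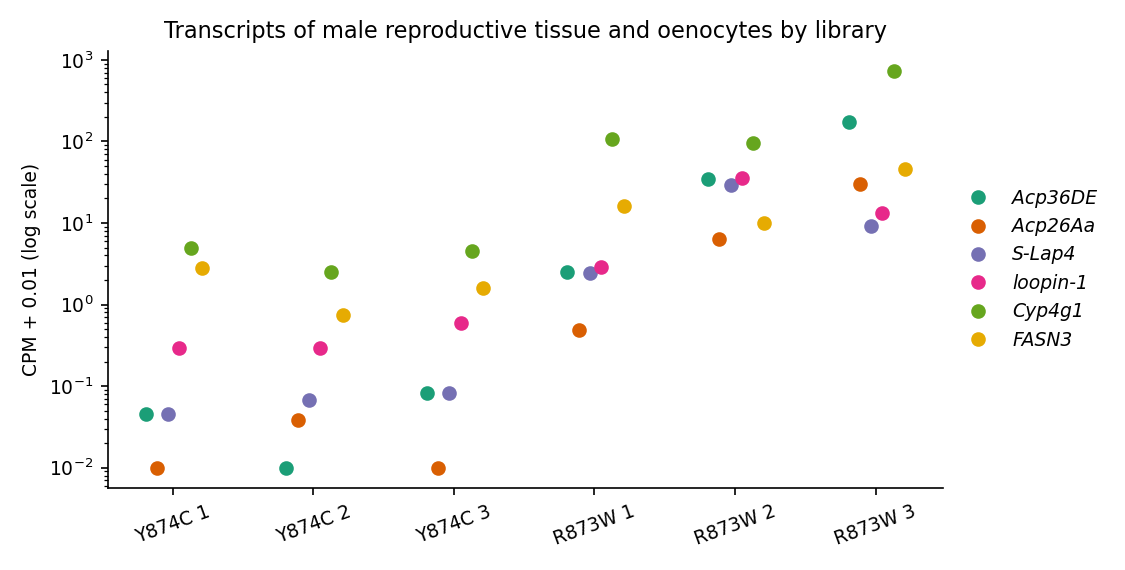
Levels of 4 male reproductive transcripts and of 2 transcripts known from oenocytes (Cyp4g1 and FASN3), as CPM + 0.01 on a log axis, with 1 point per gene and library. Each of the 6 genes was higher in each R873W library than in each Y874C library, and the R873W libraries differ among themselves, with Acp36DE running between 2.51 and 174 CPM.

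Of transcripts that mark the sex of the fly, roX1, roX2 and Yp1 did not pass the test, while Sxl and fit did. The male-specific RNA of dosage compensation lncRNA:roX2 had 31.7 ± 6.64 CPM in Y874C heads and 29.9 ± 1.25 CPM in R873W heads, and lncRNA:roX1 had 668 ± 144 CPM in Y874C heads and 635 ± 104 CPM in R873W heads (edgeR adjusted p = 0.709 and 0.803). Yp1, a yolk protein made in females, had 3797 ± 514 CPM in Y874C heads and 3824 ± 297 CPM in R873W heads with overlapping libraries. Of the 7 tested members of its list 2 were lower, a count too small to set against the 6.97% of all tested genes. They were Sxl (316 ± 66.3 CPM in Y874C heads and 484 ± 36.2 CPM in R873W heads) and fit (81.1 ± 24.4 CPM in Y874C heads and 146 ± 35.4 CPM in R873W heads). Both of these calls are lost without Y874C 2, Y874C 3, R873W 1 or R873W 2. The eye opsin ninaE, which marks head tissue, had 22156 ± 255 CPM in Y874C heads and 21579 ± 1928 CPM in R873W heads. In such bulk samples, fewer cells of a type and less RNA per cell cannot be told apart.

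Of 10782 genes tested with edgeR's quasi-likelihood test, 568 were higher in Y874C heads than in R873W heads (5.27%) and 752 were lower (6.97%) at a Benjamini-Hochberg adjusted p under 0.05, 12.2% in all. The median log2 fold change of all tested genes, Y874C over R873W, was 0.0048. Under scaling by library size alone the median was 0.12 and 67.6% of the calls were higher in Y874C, against 43.0% in the fit reported here. The libraries of the groups did not overlap in 37.3% of the tested genes. The counts turn on single libraries: without Y874C 2 there were 58 higher and 84 lower, and without Y874C 3 there were 57 and 101. Without Y874C 1 there were 1473 higher and 1520 lower, without R873W 1 there were 259 and 926, without R873W 2 there were 174 and 311, and without R873W 3 there were 341 and 513. Leaving out R873W 2 and 3 together, a choice made after the data were seen, left 31 higher and 61 lower. In all 6 fits that leave out 1 library, 52 genes were called higher and 79 lower.

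Kdm5 itself, at 2L:5989400-5999501 in the dm6 genome, had 525, 487 and 495 CPM in Y874C heads, against 558, 557 and 562 CPM in R873W heads. All Y874C libraries lay below all R873W libraries, with a log2 fold change of -0.16 ± 0.067 (SE) that did not pass the test (edgeR adjusted p = 0.146). In WT heads it ran between 433 and 519 CPM. A missense change leaves the transcript in place, so this level does not check the labels.

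The largest rises in Y874C heads, among genes with a mean of at least 5 CPM over the 6 libraries, were in mthl8, Srg3, tobi and sordd2. For mthl8, a receptor gene of the methuselah-like family on 3L:22428-26308, Y874C heads had 89.9, 76.0 and 78.4 CPM, against 0.216, 0.133 and 0.0414 CPM in R873W heads (log2 fold change 9.25 ± 0.23, edgeR adjusted p = 4.47e-07). It was thus well detected in each Y874C library and rested on 9 counts over the R873W libraries together. It passed the filter on low counts through the Y874C libraries alone, so its call describes those libraries. It ran between 40.7 and 56.1 CPM in A224T heads, 37.9 and 60.2 CPM in L854F heads and 14.6 and 19.2 CPM in JmjC heads, while D234G heads held no count and WT heads at most 0.0580 CPM. The strains fall apart in this gene into those with a clear level and those at or near 0, with Y874C in the first class and R873W, D234G and WT in the second.

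For tobi, an alpha-glucosidase known as a target of brain insulin, Y874C heads had 6.08, 12.2 and 10.4 CPM, against 0.605, 0.664 and 0.248 CPM in R873W heads (log2 fold change 4.24 ± 0.38, edgeR adjusted p = 0.000727). Srg3 had 15.4, 23.6 and 14.6 CPM in Y874C heads, against 0.821, 1.06 and 0.745 CPM in R873W heads (log2 fold change 4.35 ± 0.25, edgeR adjusted p = 9.15e-05). WT heads lay nearer to Y874C in both, between 3.50 and 10.1 CPM for tobi and between 5.77 and 19.97 CPM for Srg3. In JmjC heads both genes ran widely, tobi between 10.8 and 88.9 CPM and Srg3 between 4.72 and 62.9 CPM.

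Adjacent pairs of related genes on the X chromosome rose together in Y874C heads. For sordd2 Y874C heads had 71.8, 77.4 and 82.9 CPM, against 5.01, 3.01 and 4.39 CPM in R873W heads (log2 fold change 4.22 ± 0.17, edgeR adjusted p = 8.83e-06). Its neighbour sordd1 had 283, 263 and 262 CPM in Y874C heads, against 86.9, 84.4 and 89.9 CPM in R873W heads (log2 fold change 1.63 ± 0.067). The R873W strain was the low one for both: WT heads had 64.5 to 74.3 CPM of sordd2 and 217 to 291 CPM of sordd1, and no other head library fell below these ranges. Gss1 and Gss2 encode glutathione synthetases, which make the last step of glutathione synthesis. Y874C heads had 83.2, 108 and 107 CPM of Gss1, against 25.1, 30.8 and 29.0 CPM in R873W heads, and 124, 147 and 143 CPM of Gss2, against 35.3, 43.6 and 39.3 CPM in R873W heads. Both had a log2 fold change of 1.81 (SE 0.12 for Gss1 and 0.10 for Gss2), and WT heads lay with Y874C, between 80.2 and 99.2 CPM for Gss1 and between 106 and 126 CPM for Gss2. Reads shared between the copies of a pair could be split or dropped by the counting, which is uncertain for these pairs.

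In other genes Y874C was the high strain. TkR99D, a receptor for the neuropeptide tachykinin, had 53.7, 48.7 and 51.7 CPM in Y874C heads, against 16.4, 18.6 and 18.9 CPM in R873W heads (log2 fold change 1.51 ± 0.089, edgeR adjusted p = 9.15e-05). WT heads had 12.9 to 19.1 CPM of it, and of the other variants only JmjC, with 42.2 to 50.2 CPM, came near Y874C. The detoxifying enzyme gene Ugt37A3 had 9.58, 9.10 and 7.39 CPM in Y874C heads, against 1.51, 1.90 and 1.37 CPM in R873W heads (log2 fold change 2.45 ± 0.19), while WT heads had 2.12 to 3.18 CPM. Both differences hold in each fit that leaves out 1 library. The other genes among the 12 largest rises were Drsl4, lncRNA:CR32553, Cpr11B, CG17108 and CG1354, with log2 fold changes between 1.68 and 1.93. Of these, Drsl4 is not called without Y874C 2, nor CG17108 without Y874C 2, Y874C 3 or R873W 2.

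Of the 12 largest falls, 10 were uneven among the R873W libraries and included accessory gland and sperm transcripts (Acp36DE, Acp26Aa, Acp53C14a, Acp53C14b and S-Lap4). They passed the filter on low counts through the R873W libraries alone, so their calls are a description of those libraries. Of the 34 members of the male reproductive list, 13 passed the filter, and nothing is read from their number called. Acp36DE rested on 3 counts over the Y874C libraries and 5060 over the R873W libraries, and its call is lost without Y874C 2, without Y874C 3 and with edgeR's robust setting. Acp26Aa rested on 1 count over the Y874C libraries and 889 over the R873W libraries. WT heads held at most 0.152 CPM of Acp36DE and none of Acp26Aa. Cyp4g1 (log2 fold change -6.32 ± 0.94, edgeR adjusted p = 0.00843) ran between 1.22 and 27.1 CPM in WT heads. The part of such tissue in the other differences was not tested.

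**Figure D2:**
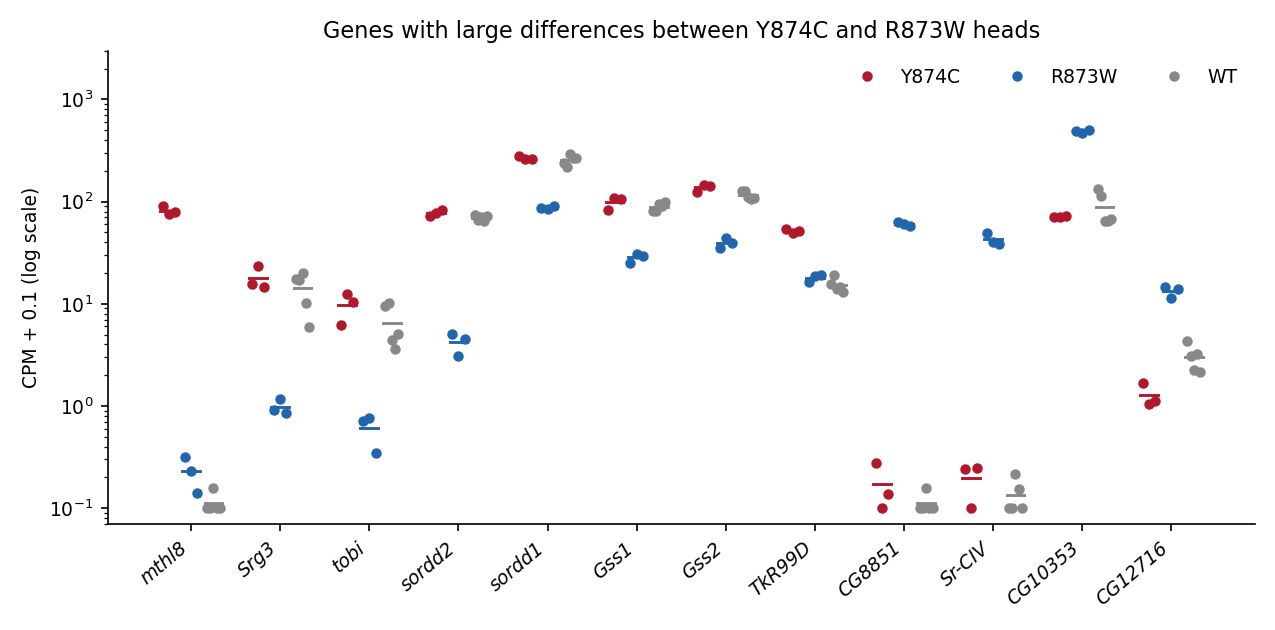
CPM + 0.1 on a log axis in the Y874C (3), R873W (3) and WT (5) libraries for 8 genes higher and 4 genes lower in Y874C heads; points are libraries and lines are means. In mthl8 the R873W and WT libraries are near 0, in sordd2, Gss1 and Gss2 the R873W libraries lie below the others, and in CG8851, Sr-CIV, CG10353 and CG12716 they lie above.

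The falls with even R873W libraries were set apart after the values were seen, as those with at most 2 times between the highest and the lowest R873W library. CG10353, on X:11877737-11887162, had 70.1, 70.5 and 72.03 CPM in Y874C heads, against 486, 474 and 500 CPM in R873W heads (log2 fold change -2.78 ± 0.066, edgeR adjusted p = 4.47e-07). No other strain passed 133 CPM, the highest WT library, so R873W was the high strain. CG42747 had 4.90, 4.35 and 4.26 CPM in Y874C heads, against 37.7, 35.8 and 30.6 CPM in R873W heads (log2 fold change -2.94 ± 0.12), and WT heads had 4.76 to 6.37 CPM. Of the odorant-binding protein gene Obp99a, Y874C heads had 10.7, 5.66 and 13.7 CPM, against 42.3, 47.3 and 39.4 CPM in R873W heads. In Obp99a other strains overlapped both, with 8.69 to 36.7 CPM in WT heads and 44.1 to 47.8 CPM in D234G heads.

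A block of 6 neighbouring genes on arm 2L, from CG3213 (start 3517273) to IFT57 (end 3532678), was lower in Y874C heads throughout. CG8851, at 2L:3519677-3522555, had 0.179, 0 and 0.0364 CPM in Y874C heads, against 63.8, 60.7 and 57.5 CPM in R873W heads. Sr-CIV, a scavenger receptor gene that overlaps its end, had 0.143, 0 and 0.146 CPM in Y874C heads, against 49.7, 40.6 and 38.6 CPM in R873W heads. Log2 fold changes were -9.74 ± 0.34 for CG8851 and -8.84 ± 0.35 for Sr-CIV, on 6 and 8 counts over the Y874C libraries. Both genes passed the filter on low counts through the R873W libraries alone, so their calls describe those libraries. Outside R873W, Sr-CIV stayed at or under 0.209 CPM in every head library, and CG8851 at or under 0.319 CPM except in D234G heads, where it reached 15.02 CPM. Next to them CG8852 had 7.33, 7.40 and 7.03 CPM in Y874C heads, against 26.1, 21.0 and 20.7 CPM in R873W heads (log2 fold change -1.64 ± 0.12). Of the other block members, CG3213, Spindly and IFT57 had log2 fold changes of -6.11, -0.83 and -2.35. CG3213 was uneven among the R873W libraries, with 5.62, 19.1 and 10.3 CPM, and was highest in R873W 2, as S-Lap4 was. Y874C heads had 0.107, 0.285 and 0.0728 CPM of CG3213, which also passed the filter through the R873W libraries alone. Whether its fall belongs with the male reproductive transcripts was not tested. The calls of Spindly and IFT57 are lost without Y874C 2 or without Y874C 3, and that of Spindly also without R873W 2.

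Near Kdm5 on 2L, CG13992 (start 5965391) had 2.18, 1.79 and 3.02 CPM in Y874C heads, against 0.130, 0 and 0.0827 CPM in R873W heads (log2 fold change 4.94 ± 0.57, edgeR adjusted p = 0.00298). Its neighbour Ucp4C, of the mitochondrial uncoupling protein family, had 2.503, 1.91 and 4.01 CPM in Y874C heads, against 0.130, 0.752 and 0.621 CPM in R873W heads. WT heads stayed at or under 0.101 CPM for CG13992 and 0.0506 CPM for Ucp4C. The Ucp4C call is lost without Y874C 2, Y874C 3, R873W 2 or R873W 3. CG13992 rested on 5 counts over the R873W libraries. It passed the filter through the Y874C libraries alone, so its call describes those libraries.

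Among windows of 1 Mb on the large chromosome arms, chromosome 4 being taken apart, the calls were densest on X between 12 and 13 Mb. There 5 of 63 tested genes were higher and 18 lower, 36.5% called, the first of 117 windows of 1 Mb with at least 20 genes, against 12.2% over all genes. CG12716 had 1.57, 0.939 and 1.02 CPM in Y874C heads, against 14.6, 11.4 and 14.0 CPM in R873W heads (log2 fold change -3.50 ± 0.22, edgeR adjusted p = 0.000117). WT heads had 2.06 to 4.24 CPM, so R873W was again the high strain. CG4645 and Brms1, which lie side by side, had 29.7 ± 1.68 and 24.6 ± 2.05 CPM in Y874C heads, against 69.5 ± 3.37 and 43.1 ± 0.594 CPM in R873W heads. In the same window pira rose, with 50.4, 41.0 and 39.4 CPM in Y874C heads, against 19.3, 18.6 and 17.7 CPM in R873W heads. CG10353 lies just outside the window. Over the whole X chromosome 16.0% of 1771 tested genes were called.

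The small chromosome 4, which is largely heterochromatic in its packaging yet carries active genes, held a large share of genes that were lower in Y874C heads. Of its 100 tested genes, 1 was higher and 40 were lower, against 6.97% of all tested genes, 94 had a log2 fold change below 0, and their median was -0.45, against 0.0048 for all genes. This group was chosen after the values were seen. RhoGAP102A had 78.0, 57.4 and 56.8 CPM in Y874C heads, against 149, 153 and 139 CPM in R873W heads (log2 fold change -1.20 ± 0.12, edgeR adjusted p = 0.00161). CaMKII, a calcium-dependent kinase of synapses, had 767, 544 and 578 CPM in Y874C heads, against 1102, 1030 and 929 CPM in R873W heads (log2 fold change -0.70 ± 0.14, edgeR adjusted p = 0.0199). In these genes Y874C 1 was the highest of the Y874C libraries and still below each R873W library. WT heads lay with Y874C, between 58.0 and 73.3 CPM for RhoGAP102A and between 634 and 714 CPM for CaMKII. CG31999, with 70.7, 64.4 and 61.0 CPM in Y874C heads, against 127, 129 and 110 CPM in R873W heads, had a log2 fold change of -0.90 ± 0.089 (edgeR adjusted p = 0.00121).

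Other genes of chromosome 4 that were lower were mGluR, a metabotropic glutamate receptor (-0.53), Eph, an axon guidance receptor (-0.45), the eye selector gene toy (-0.30) and the lysosomal regulator Mitf (-0.76). Only zfh2 was higher, with 196 ± 33.4 CPM in Y874C heads and 140 ± 17.2 CPM in R873W heads (log2 fold change 0.49 ± 0.13, edgeR adjusted p = 0.0490), and it is not called with the size factors of DESeq2, nor without Y874C 2, Y874C 3, R873W 2 or R873W 3. The number called lower was 76 without Y874C 1, 3 without Y874C 2, 3 without Y874C 3, 19 without R873W 1, 11 without R873W 2 and 26 without R873W 3. Over these fits the median stayed between -0.37 and -0.58, and it was -0.35 under scaling by library size alone. Within classes of gene span the medians of chromosome 4 genes ran between -0.36 and -0.82, against 0.10 to -0.16 on the other chromosomes 5 Mb or more from a centromeric end. As the median of its genes relative to the mean of all 23 head libraries (log2), chromosome 4 stood at 0.11, -0.31 and -0.23 in the Y874C libraries, against 0.42, 0.33 and 0.24 in the R873W libraries. The R873W libraries were the highest of all 23, and WT libraries ran between -0.13 and 0.11.

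**Figure D3:**
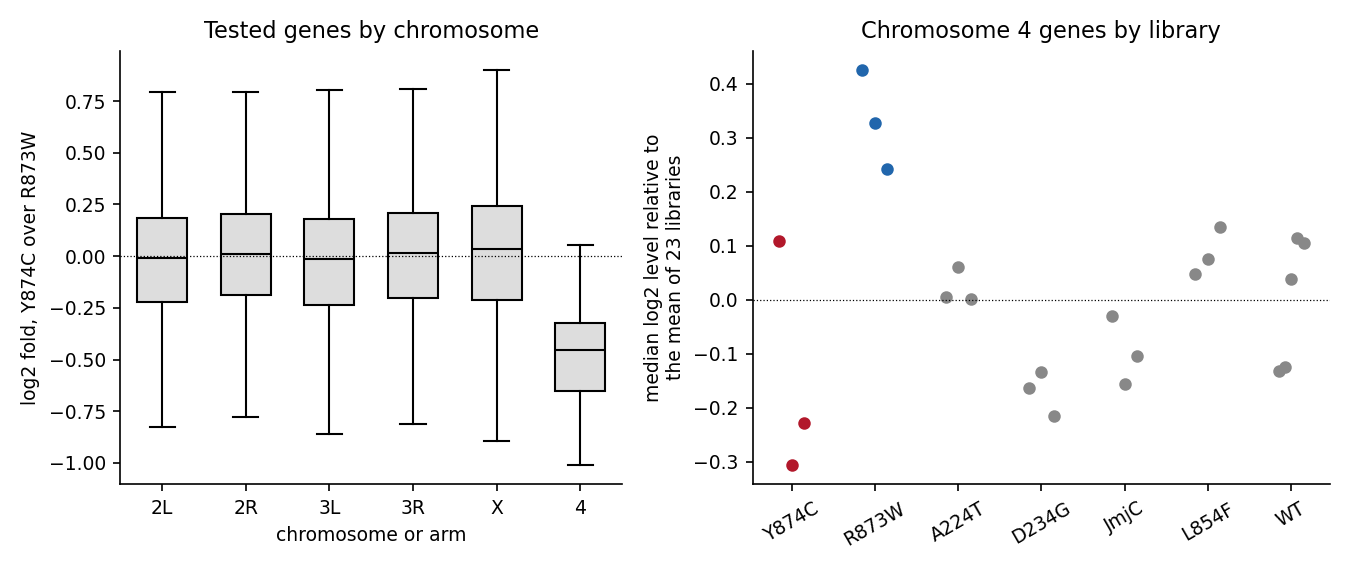
Left, log2 fold change (Y874C over R873W) of the tested genes on each chromosome or arm: box, quartiles; line, median; whiskers to 1.5 times the box, with points beyond them not drawn. Right, median log2 level of 100 genes of chromosome 4 in each head library relative to the mean of the 23 libraries; the R873W points lie between 0.24 and 0.42, above every other library, and the Y874C points between -0.31 and 0.11.

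Genes near the centromeres of the large autosomes also had medians below 0. Of 529 tested genes within 5 Mb of the centromeric end of an autosomal arm, 15 were higher and 59 lower (11.2% lower), with a median of -0.14, which was -0.03 under scaling by library size alone. Within 2 Mb of the centromeric end, X included, none of 131 genes was higher and 19 were lower, with a median of -0.26. Farther than 10 Mb, 421 of 7638 genes were higher and 476 lower, with a median of 0.02. The call counts also depend here on single libraries: the lower genes in the autosomal set numbered 144 without Y874C 1 but 3 without Y874C 2 and 3 without Y874C 3, 25 without R873W 1, 19 without R873W 2 and 33 without R873W 3. Genes within 5 Mb of the centromeric end of X had a median of 0.0020, with 23 of 277 higher and 23 lower.

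Genes differed in the contrast with the length of genome they span, a grouping made after the values were seen. Genes spanning 1000 to 2000 bases had a median log2 fold change of 0.10, with 216 of 2687 higher and 172 lower, and genes spanning over 64000 bases had a median of -0.19, with 5 of 198 higher and 23 lower. The shortest genes, up to 1000 bases, had a median of 0.02, with 96 of 1346 higher and 113 lower. The median thus did not rise steadily as span fell. Genes of ribosomes and the respiratory chain are mostly short: the median span was 1396 bases for cytosolic ribosomal protein genes, 885 for mitochondrial ones and 1249 for nuclear respiratory chain genes, against 2713 for all tested genes. Their values among genes of like span are given beside them.

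Nuclear genes of translation and mitochondria held more higher than lower calls in Y874C heads. Of 81 cytosolic ribosomal protein genes, all tested, 19 were higher and 1 was lower (23.5% higher, against 5.27% of all tested genes), and their median log2 fold change was 0.23. RpLP0, of the ribosomal stalk, had 817, 1033 and 1003 CPM in Y874C heads, against 615, 661 and 676 CPM in R873W heads (log2 fold change 0.55 ± 0.10, edgeR adjusted p = 0.0179). RpL26 had 366, 613 and 630 CPM in Y874C heads, against 254, 259 and 310 CPM in R873W heads (log2 fold change 0.97 ± 0.20, edgeR adjusted p = 0.0218). RpL36A had 104, 273 and 261 CPM in Y874C heads, against 83.9, 79.1 and 98.4 CPM in R873W heads (log2 fold change 1.29 ± 0.32, edgeR adjusted p = 0.0377). Y874C 1 lay between the R873W libraries and the other Y874C libraries in each of these genes. WT heads were at 981 to 1302 CPM for RpLP0, 477 to 666 CPM for RpL26 and 367 to 590 CPM for RpL36A, so that R873W was farther below WT in all of them.

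RpL38 was the ribosomal protein gene that was lower, with 220 ± 38.6 CPM in Y874C heads and 302 ± 21.5 CPM in R873W heads (log2 fold change -0.46 ± 0.12, edgeR adjusted p = 0.0473). As the median over the 81 genes relative to all 23 head libraries (log2), cytosolic ribosomal proteins stood at 0.17, 0.22 and 0.25 in Y874C heads, against -0.10, 0.11 and 0.04 in R873W heads, and between 0.11 and 0.45 in WT heads. The Y874C and R873W libraries did not overlap in this summary. The calls turned on single libraries. There were 35 higher and 4 lower without Y874C 1, and none without Y874C 2 or without Y874C 3. Higher calls numbered 8 without R873W 1, 1 without R873W 2 and 10 without R873W 3. The median of the list stayed between 0.19 and 0.27 in these fits. Among genes spanning at most 2000 bases, 18 of 65 cytosolic ribosomal protein genes were higher (27.7%) with a median of 0.24, beside 312 of all 4033 such genes (7.74%) with a median of 0.08.

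Of 72 tested mitochondrial ribosomal protein genes 11 were higher (15.3%, against 5.27% of all tested genes) and none lower, with a median of 0.28. They included mRpL12 (20.9 ± 1.87 CPM in Y874C heads and 13.7 ± 1.52 CPM in R873W heads) and mRpL42 (11.7 ± 2.07 CPM in Y874C heads and 6.41 ± 1.08 CPM in R873W heads). Of 68 tested nuclear genes of the respiratory chain 8 were higher (11.8%) and none lower, with a median of 0.16. Among them were the complex I subunits ND-13B (49.5 ± 13.4 CPM in Y874C heads and 24.7 ± 4.65 CPM in R873W heads) and ND-24 (122 ± 11.9 CPM in Y874C heads and 89.7 ± 8.82 CPM in R873W heads). Among genes spanning at most 2000 bases the medians were 0.30 for 69 mitochondrial ribosomal protein genes and 0.22 for 53 respiratory chain genes, beside 0.08 for all such genes. Mitochondrial ribosomal protein genes had a median span of 885 bases, and all tested genes spanning at most 1000 bases had a median of 0.02. In ribosome biogenesis 6 of 32 genes were higher (18.75%) and none lower. Among translation factors 4 of 37 were higher (10.8%) and 1 lower (2.70%, against 6.97% of all tested genes). All calls in the mitochondrial ribosomal and respiratory chain lists are lost without Y874C 2, without Y874C 3 and without R873W 2; without R873W 1 there remain 3 and 0, and without Y874C 1 there are 27 and 25 higher. No gene of the TCA cycle (16 tested), glycolysis (13) or the proteasome (38) was called.

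The transcripts of the mitochondrial genome went the other way. All 13 had a log2 fold change below 0, and the median was -1.02. Of them 8 were lower (61.5%, against 6.97% of all tested genes). mt:ND3 had 94.8, 86.1 and 93.3 CPM in Y874C heads, against 204, 322 and 194 CPM in R873W heads (log2 fold change -1.39 ± 0.18, edgeR adjusted p = 0.00482), and it is called in each fit that leaves out 1 library. mt:ND2 had 151, 92.0 and 102 CPM in Y874C heads, against 291, 548 and 278 CPM in R873W heads (log2 fold change -1.69 ± 0.29, edgeR adjusted p = 0.0130). The abundant mt:CoI had 14750, 8702 and 9518 CPM in Y874C heads, against 18680, 19346 and 14780 CPM in R873W heads, and did not pass (edgeR adjusted p = 0.0687). R873W 2 was the highest library in these 3 genes, and Y874C 1 the highest of its group. WT heads ran between 133 and 316 CPM for mt:ND3 and between 18.5 and 187 CPM for mt:ND2. Relative to all 23 libraries the median of the 13 genes was 0.51, -0.37 and -0.16 in Y874C heads, against 1.03, 1.22 and 0.67 in R873W heads and between -0.22 and 0.25 in WT heads. The number lower was 12 without Y874C 1, 1 without Y874C 2, 1 without Y874C 3, 7 without R873W 1, 3 without R873W 2, 7 without R873W 3 and 1 without R873W 2 and 3.

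**Figure D4:**
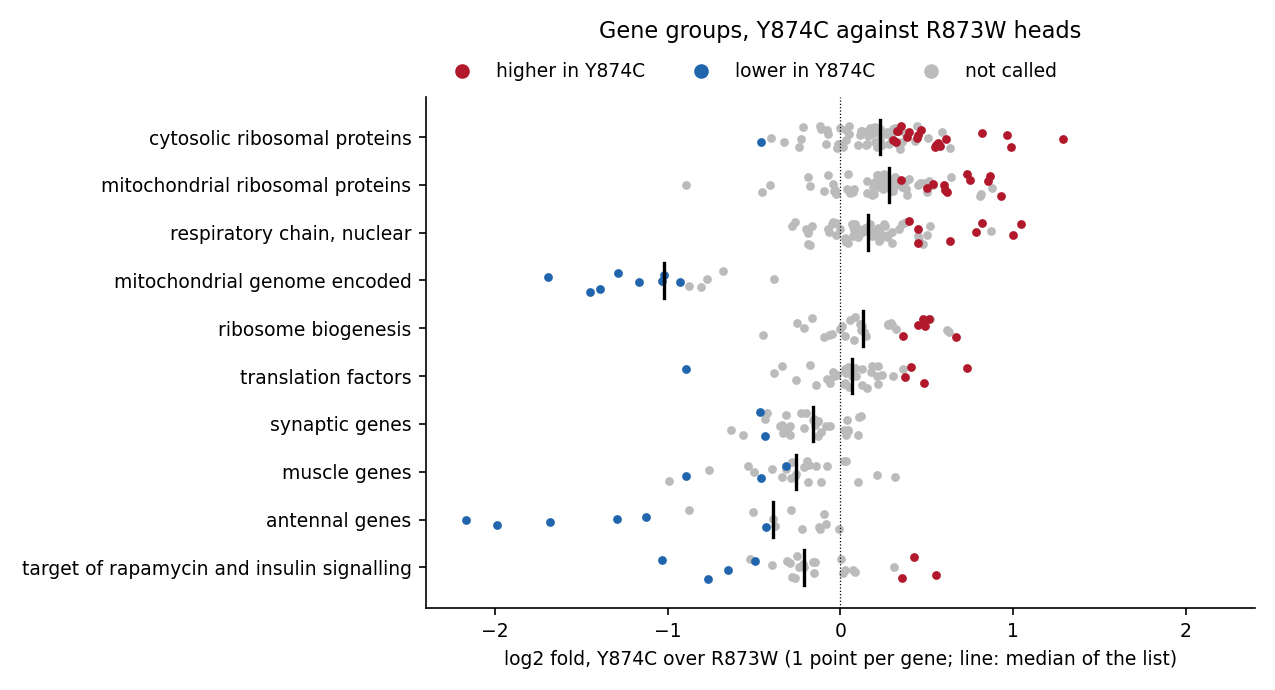
Log2 fold change, Y874C over R873W, of each tested gene in 10 gene groups, with the median of each group as a black line; red points were higher, blue points lower and grey points not called. Cytosolic ribosomal proteins have a median of 0.23 and transcripts of the mitochondrial genome one of -1.02, with all 13 below 0.

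Insulin-like peptides and their downstream pathway were mixed. Ilp5 and Ilp3 are made with Ilp2 by insulin-producing cells of the brain. Ilp5 had 8.94, 9.22 and 10.997 CPM in Y874C heads, against 18.9, 21.6 and 19.1 CPM in R873W heads (log2 fold change -1.03 ± 0.12, edgeR adjusted p = 0.00256). Ilp3 had 22.0, 19.8 and 21.9 CPM in Y874C heads, against 34.4, 39.2 and 34.8 CPM in R873W heads (log2 fold change -0.77 ± 0.090, edgeR adjusted p = 0.00312). Both were lower in each fit without 1 library, though neither is called without R873W 2 and 3. Ilp2 had 60.8 ± 1.26 CPM in Y874C heads and 71.7 ± 6.92 CPM in R873W heads and did not pass (edgeR adjusted p = 0.0889). All Y874C libraries lay above the highest WT library for each of these peptides, whose WT levels were at most 8.74, 19.2 and 54.7 CPM for Ilp5, Ilp3 and Ilp2. Over the TOR and insulin list 3 of 26 genes were higher (raptor, Tsc1 and REPTOR-BP; 11.5%, against 5.27% of all tested genes) and 4 lower (15.4%, against 6.97%), among them Ilp5, Ilp3 and ImpL2. Other than the peptides, each of these named calls is lost without Y874C 2, without Y874C 3 and without each R873W library in turn, except that Tsc1 stays without R873W 3.

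Of 50 midgut genes 10 passed the filter, of which the carbohydrate enzymes Amy-d, Amy-p and Mal-A1 were higher and hoka lower, a count too small to set against the 5.27% and 6.97% of all tested genes. The call of Amy-p is lost without Y874C 2, and that of Mal-A1 without Y874C 2, Y874C 3, R873W 2 or R873W 3. The alpha-amylase Amy-d had 41.0, 60.3 and 39.1 CPM in Y874C heads, against 16.9, 19.4 and 18.0 CPM in R873W heads (log2 fold change 1.37 ± 0.17, edgeR adjusted p = 0.0037), and its neighbouring copy Amy-p 23.6 ± 6.64 CPM in Y874C heads and 9.30 ± 2.22 CPM in R873W heads. The junction gene hoka rested on 2 counts in Y874C heads and 116 in R873W heads, a ratio of 0.0133 after scaling with an exact 95% interval of 0.00159 to 0.0492, which covers counting error only. R873W heads had 1.73, 1.55 and 1.70 CPM of hoka, and WT heads 2.22 to 12.4 CPM.

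Of 17 tested antennal genes, from a list of 23, 6 were lower in Y874C heads and none was higher (35.3% lower, against 6.97% of all genes), and their median log2 fold change was -0.39. Obp83b had 2.11, 1.39 and 2.80 CPM in Y874C heads, against 6.01, 7.83 and 6.33 CPM in R873W heads, and a10 had 2.97, 1.25 and 3.39 CPM in Y874C heads, against 9.51, 10.3 and 10.1 CPM in R873W heads (log2 fold changes -1.68 ± 0.26 and -1.99 ± 0.31). These are low levels in both groups, since a10 ran between 84.1 and 143 CPM in the A224T, L854F and JmjC libraries, and reached 103 CPM in WT heads, where its lowest library had 4.80 CPM. With all 23 head libraries in 1 fit, no antennal gene was called. The most abundant antennal gene, Obp19d, had 452 ± 47.3 CPM in Y874C heads and 483 ± 54.5 CPM in R873W heads. Its libraries overlapped, and it did not pass (edgeR adjusted p = 0.581). Orco, the odorant co-receptor gene of the list, did not pass either (edgeR adjusted p = 0.0865). Muscle genes were lower for 3 of 26 (TpnC4, bt and sls; bt lies on chromosome 4), and TpnC4 had 5.79, 5.04 and 5.83 CPM in Y874C heads, against 10.1, 10.5 and 10.4 CPM in R873W heads. Glial genes were lower for 2 of 15 (Mdr65 and Gli, of the blood-brain barrier). Synaptic genes were lower for 2 of 33 (Syt1 and elav), with a median of -0.16. The shares were 11.5% for muscle, 13.3% for glial and 6.06% for synaptic genes, against 6.97% of all tested genes. The calls of bt, sls, Syt1 and elav are lost without Y874C 2, without Y874C 3 and without each R873W library in turn. Those of Mdr65 and Gli are lost without Y874C 2, Y874C 3 or R873W 2. The most abundant markers, Gs2 of glia and Mhc of muscle, were not called.

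Effectors of immunity split: of 30 tested antimicrobial peptide and bomanin genes, BomT3, Drsl4 and Drsl5 were higher and BomT1, Def and BomS2 lower, 10% in each direction against 5.27% and 6.97% of all tested genes, and none of 27 recognition and signalling genes was called. BomT3 had 60.0, 34.7 and 39.1 CPM in Y874C heads, against 14.5, 21.2 and 21.0 CPM in R873W heads, and BomS2 had 92.1, 60.5 and 43.7 CPM in Y874C heads, against 124, 191 and 115 CPM in R873W heads. Hemocyte markers (16), clock genes (12) and dosage compensation genes (11) gave no call. Of 75 cytochrome P450 genes 3 were higher and 4 lower, near the shares over all genes; Cyp4d1 had 6.54, 6.91 and 4.84 CPM in Y874C heads, against 1.64, 1.99 and 1.82 CPM in R873W heads. In the stress list of 29 genes Gcn2 was higher (3.45%) and TotX, cnc and TrxT lower (10.3%). TrxT was among the genes that differed over 3 times among the R873W libraries, and its call is lost without Y874C 2, Y874C 3 or R873W 2. TotX, a humoral stress peptide of the Turandot family, had 6.87, 6.66 and 6.99 CPM in Y874C heads, against 12.6, 14.3 and 14.9 CPM in R873W heads. In the eye lists Rh5, the opsin of some blue-sensitive photoreceptors, was higher (151 ± 17.0 CPM in Y874C heads and 103 ± 4.11 CPM in R873W heads) and the phototransduction G protein gene Galphaq lower (381 ± 30.5 CPM in Y874C heads and 510 ± 22.2 CPM in R873W heads).

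The remaining lists are given against 5.27% of all tested genes higher and 6.97% lower. Of 27 histone lysine methylation enzymes and cofactors, Cfp1, a subunit of a complex that methylates histone H3, was the only call (19.5 ± 2.65 CPM in Y874C heads and 11.4 ± 1.48 CPM in R873W heads). Of 56 cuticle protein genes 2 were higher and 7 lower, of 29 pigment genes 1 and 2, of 30 neuropeptide genes 1 and 2 (both lower ones being Ilp5 and Ilp3) and of 20 UDP-glycosyltransferase genes 1 and 2. Of 22 heat shock genes none was higher and 2 were lower (Hsp60C and lncRNA:Hsromega). Hsp60C was uneven among the R873W libraries, with 1.69, 8.01 and 3.35 CPM, and was highest in R873W 2, as S-Lap4 was. Of 31 glutathione S-transferase genes 1 was higher and none lower, and of 18 fat body genes 2 were higher (tobi and Lsd-1) and none lower. Of 4 tested ovary transcripts 1 was lower, and of 4 tested salivary gland and crop genes 1 was higher and 1 lower. Of the cuticle protein genes 12.5% were lower. Yp3, apolpp, Ppn, Mal-B2, fkh and gcl, the most abundant members of the female, fat body, hemocyte, midgut, salivary gland and ovary lists, were not called. The list members called in all 6 fits that leave out 1 library are tobi, Amy-d, Cyp4d1, Ugt37A3, Cpr11B and Cpr72Ec, which were higher, and Ilp3, Ilp5, TotX, TpnC4, mt:ND3, a10, Obp83b, hoka and the sperm gene Mst98Ca, which were lower. Of these, hoka and Mst98Ca rested on 2 and 9 counts over the Y874C libraries. They passed the filter through the R873W libraries alone, so their calls describe those libraries.

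Of the 131 genes called in all 6 such fits, some with known roles in neurons were picked here after their values were seen. GABA-B-R1, a metabotropic GABA receptor subunit, had 314, 206 and 225 CPM in Y874C heads, against 124, 112 and 114 CPM in R873W heads (log2 fold change 1.09 ± 0.15, edgeR adjusted p = 0.00581). The sodium leak channel gene na had 191, 206 and 218 CPM in Y874C heads, against 129, 120 and 134 CPM in R873W heads (log2 fold change 0.69 ± 0.076, edgeR adjusted p = 0.0023). In the other direction, Neto, an auxiliary subunit of glutamate receptors, had 23.4, 19.9 and 19.7 CPM in Y874C heads, against 50.6, 49.7 and 49.2 CPM in R873W heads (log2 fold change -1.25 ± 0.089, edgeR adjusted p = 0.000252). The histamine-gated chloride channel gene HisCl1 had 34.8, 32.2 and 33.9 CPM in Y874C heads, against 50.8, 50.0 and 47.8 CPM in R873W heads (log2 fold change -0.56 ± 0.072, edgeR adjusted p = 0.00457). In none of these genes did the groups overlap, nor did they in 37.3% of all tested genes. Since the genes were picked from calls that hold in all 6 fits, this adds nothing to the calls. In GABA-B-R1 the Y874C libraries differ among themselves by more than the gap to R873W, with Y874C 1 the highest.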

How the data were processed

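The authors deposited 1 table of counts per gene for the head libraries; per the labels' protocols, RNA was extracted with Trizol and libraries were made with a stranded mRNA kit. Per the submitters' processing notes, the dm6 genome was used with STAR, fastp, DESeq2 and featureCounts, with no version; neither the strand setting nor the treatment of shared reads is stated there. The table has 23882 rows, of which 17830 are genes (17751 with a symbol) and 6052 are insertions of transposable elements, which stayed out of library sizes and tests. The 12 Ribo-Seq libraries were not used here. Gene positions come from RefSeq (Release 6 assembly).

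The 6 libraries were fitted alone with edgeR 4.0.16 (TMM scaling, filterByExpr, quasi-likelihood F test, R 4.3.3), and calls take a Benjamini-Hochberg adjusted p under 0.05 over 10782 genes. CPM are TMM-scaled; levels are not comparable between genes, since no transcript length was used. Fits were tested on simulated data. Of 15 alternatives planned and 2 added, the closing section gives the effect.

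The text names Kdm5, the 12 largest rises and falls among calls with a mean of 5 CPM and no overlap, up to 4 called members per list and direction, the most abundant member of marker lists, and roX1, roX2 and Yp1. The members and the 35 gene lists were chosen with earlier results of these data known; the grouping by chromosome and place and the genes described as picked afterwards were chosen after seeing the data. Exact intervals were computed for named genes with 1 to 3 counts in a group, and only that of hoka is printed. Such intervals cover counting error only, at 95%.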

Additional observations from a re-analysis of the deposited data

Results flagged for a closer look

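In 5 WT libraries, mthl8 had 0.0580 CPM in WT 3 and no count in the other libraries, and CG8851 likewise had 0.0580 CPM in WT 3 and no count in the others. In each case the level rests on 1 count, so that 1 library differs from 4 at 0 by a single read and Dixon's test, which flags about 1 in 20 groups by chance, says nothing more. Neither Y874C nor R873W libraries were tested in this way, since groups of 3 are too small.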

How the results depend on the processing

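Against 568 genes higher and 752 lower in Y874C heads, there were 1163 and 1327 with all 23 head libraries in 1 fit, 927 and 1222 with DESeq2, 64 and 141 at an adjusted p under 0.01, and 84 and 374 with a log2 fold over 1 added. Scaling by library size alone gave 1300 higher and 624 lower. Without 1 library the counts ran between 57 and 1473 higher and between 84 and 1520 lower. Of the alternatives added after seeing the data, leaving out R873W 2 and 3 gave 31 and 61, and leaving out 241 genes that differ over 3 times among R873W libraries gave 697 and 781. DESeq2 size factors (548 and 780), the robust setting (612 and 745) and no filter (692 and 1041) stayed within 1.5 times. Of 210 named genes and list medians, no named gene reversed, while 29 of the 210 moved under scaling by library size alone. The number that lost their call was 108 without Y874C 2, 105 without Y874C 3, 70 without R873W 2 and 38 without R873W 1. The cause of the moves was not tested. With the replicate number as a block there were 896 higher and 1141 lower, but same-numbered libraries did not deviate together (correlations -0.0013, -0.05 and -0.07), so the numbers do not pair the samples. With 3 libraries a group, no exact test of a single value can go below 0.1, and genes under a few counts cannot be told from 0.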
